A study of Mus musculus with 6 samples.

Results

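Integrins are the receptors that tie cells to the extracellular matrix. The genes described here are 9 integrin alpha chains of matrix receptors, Itga1, Itga3, Itga5, Itga6, Itga7, Itga8, Itga9, Itga11 and Itgav, with Itgb1, the beta chain that all 9 can pair with. They were taken by gene name from the deposited table of 43432 genes. The table writes names in capitals, so case was ignored, and each name was checked against its Ensembl identifier. All 10 had 1 row, and all 10 had a mean of at least 10 normalized counts, the minimum for testing, as did 15275 of the 24679 genes with any read.

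RNA was sequenced from right and left atria of C57/Bl6J wild-type mice, 3 fed a high-fat diet (HFD; obese) and 3 fed control chow (lean), in each case for 10 weeks from 6 weeks of age. The labels number 3 samples per diet, each taken here as 1 mouse, and p-values measure the spread among these samples only. The labels contradict one another on the diet: titles and table columns give the grouping used here, whereas the treatment field has the diets exchanged in all 6 samples. If that field were right, every difference below would change sign.

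An integrin pairs an alpha chain with a beta chain. The alpha chain largely sets which matrix protein is bound, and both chains reach through the membrane to short tails that recruit adaptors of the cytoskeleton. In muscle and heart, collagens, laminins and fibronectin are bound mainly by receptors that contain the beta 1 chain, and these receptors carry force between the matrix and the contractile cell. Alpha 1 and alpha 11 bind collagens, alpha 3, alpha 6 and alpha 7 bind laminins, and alpha 5, alpha 8 and alpha v recognize the RGD motif of fibronectin, nephronectin and vitronectin, while alpha 9 binds tenascin-C and several other glycoproteins.

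The 9 alpha chains have in common a short stretch just inside the membrane, at the start of the cytoplasmic tail. It is shown here as the coding sequence of the sense strand (GENCODE M21 transcripts on GRCm38), because it is the feature that joins chains whose matrix ligands differ. Capitals mark the 9 bases, or 3 codons, of the shared stretch, with 15 bases before and 21 bases after.
Itga1: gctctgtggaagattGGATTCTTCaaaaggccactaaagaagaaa
Itga11: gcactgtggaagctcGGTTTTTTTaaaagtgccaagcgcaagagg
Itga3: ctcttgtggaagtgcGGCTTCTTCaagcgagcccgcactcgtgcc
Itga6: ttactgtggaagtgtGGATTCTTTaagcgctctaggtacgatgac
Itga7: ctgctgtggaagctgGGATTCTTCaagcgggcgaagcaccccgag
Itga5: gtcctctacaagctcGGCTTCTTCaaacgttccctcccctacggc
Itga8: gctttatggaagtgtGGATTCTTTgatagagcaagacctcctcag
Itgav: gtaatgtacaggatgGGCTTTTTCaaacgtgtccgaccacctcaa
Itga9: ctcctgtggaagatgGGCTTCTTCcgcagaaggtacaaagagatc
The stretch was located by translating each reading frame and searching near its end for glycine, phenylalanine, phenylalanine. All 9 chains held it. Of its 9 positions, 6 were identical in all chains, and any pair of the 36 pairs shared between 6 and 9. The search fixed the lower number, 6, in advance, because codons for these amino acids can differ only in their last base. Identity at the last bases was not fixed by the search. The bases GGCTTCTTC occurred in Itga3, Itga5 and Itga9, GGATTCTTC in Itga1 and Itga7, and GGATTCTTT in Itga6 and Itga8, so that identical bases did not follow the ligand classes. The tail after the stretch ran from 10 codons in Itga1 to 72 in the Itga7 transcript used. The counts are summed per gene and cannot separate splice forms of these tails.

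The reads on genes numbered between 15874251 and 17351467 in 5 libraries and 28971508 in lean mouse 2. Lean mouse 2 also stood apart in its share of mitochondrial reads, 30.7% against 19.5% to 24.4%, and in the summed level of 4 ventricular myocyte markers, 17399 normalized counts against 6882 to 9866. Among the obese mice, obese mouse 3 differed from the other 2 in atrial myocyte markers. The 7 markers summed to 685706, 805034 and 1273274 normalized counts in obese mice 1, 2 and 3, and to between 1065436 and 1126027 in the lean mice. All 7 markers of the labelled tissue were present in every library. Results are therefore given without obese mouse 3, and without other mice where they alter a direction. The marker sum of obese mouse 3 lay nearer to the lean range than those of obese mice 1 and 2. Leaving it out therefore widens the difference between the groups in these markers. Among the limma fits with 1 mouse left out, the one without obese mouse 3 called the most genes at an adjusted p under 0.05, 342 of 15297. The fit without lean mouse 2 called the fewest, 14 of 15265.

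None of the 10 genes differed between obese and lean atria at an adjusted p under 0.05 (limma on log2 of the normalized count plus 1, Benjamini-Hochberg over all 15275 genes), against 0.746% of all genes tested (0.484% higher and 0.262% lower in obese atria). The count was also 0 with edgeR, against 0.57% of all genes, and with DESeq2, against 2.76%, both on the recovered reads. At an unadjusted limma p under 0.05 there was 1 gene, Itga9, against 12.2% of all genes. The groups did not overlap for 1 gene, again Itga9, against 18% of all genes (8.86% higher and 9.17% lower). The log2 fold change (log2FC), obese minus lean with its standard error (SE) and 95% confidence interval (CI) below, was positive for 7 of the 10 genes against 50.8% of all genes, with a median of 0.19 against 0.0049 over all genes. The median rested in part on single mice: it was 0.090 without obese mouse 3, with 6 of the 10 genes positive, 0.10 without obese mouse 2 and 0.12 without lean mouse 1. In whole atria, a change in the number of cells that carry a receptor and a change in its RNA per cell cannot be told apart.

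**Figure D1:**
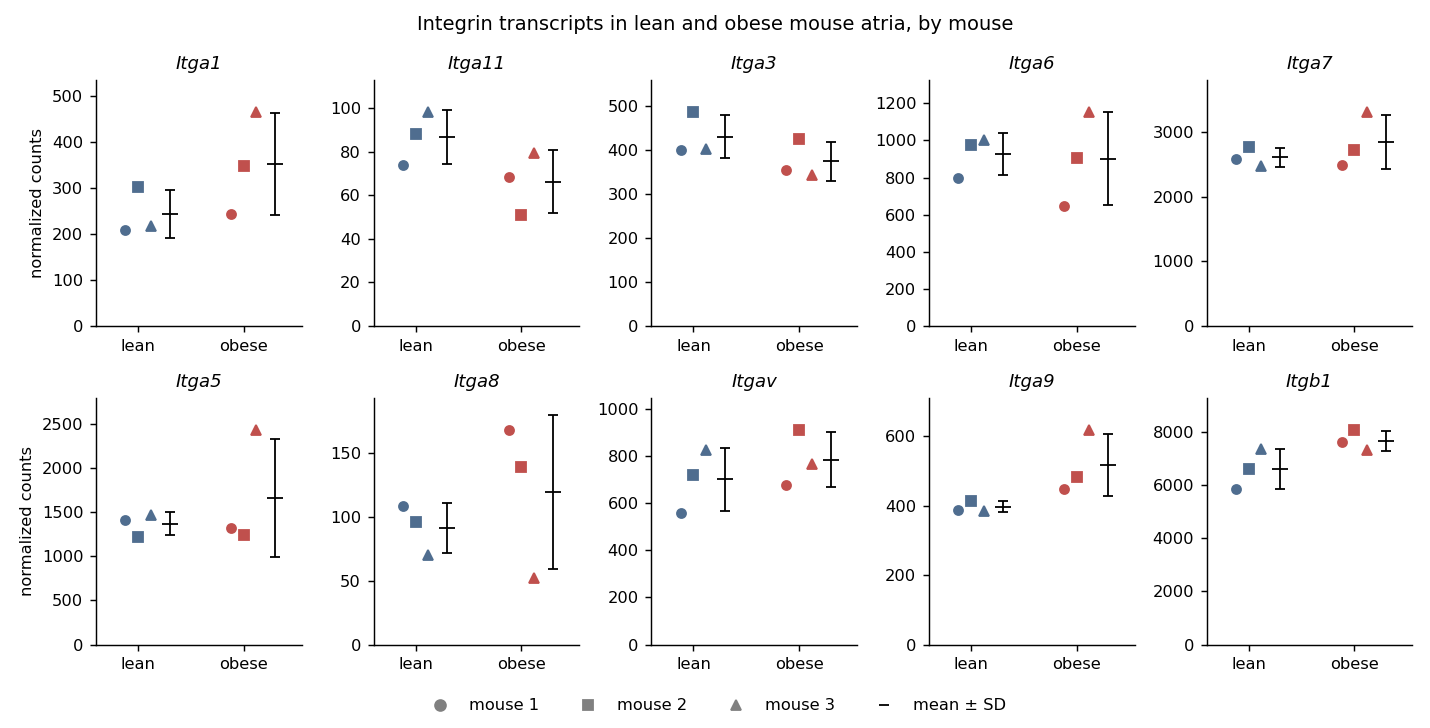
Normalized counts (vertical axes, from 0, a scale for each gene) of the 9 alpha chains and Itgb1 in 3 lean and 3 obese mice; symbols mark the mouse, and the bar beside each group is the mean ± SD. The obese points lie wholly above the lean points for Itga9 alone, and obese mouse 3 is the highest obese mouse in 6 panels and the lowest in 3.

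Of the 10 genes, the collagen receptors gave the largest difference in each direction over all 6 mice, but without obese mouse 3 that of Itga8 (0.76) was above that of Itga1 (0.29), and without obese mouse 2 that of Itga3 (-0.30) was below that of Itga11 (-0.22). Itga1 encodes the alpha 1 chain, which binds collagens including type IV of the basement membrane. On GRCm38 the gene spans chr13:114953096-115101964 on the minus strand, and its shared stretch is at chr13:114960123-114960131. Obese mice 1, 2 and 3 had 244, 349 and 466 normalized counts, and lean mice 1, 2 and 3 had 208, 302 and 218. The highest values were those of obese mice 3 and 2, but obese mouse 1 lay below lean mouse 2, so the groups overlapped. The means were 353 ± 111 (obese) and 243 ± 51.9 (lean) (SD, n = 3 each), and log2FC was 0.51 (SE 0.24, 95% CI -0.017 to 1.04, adjusted p = 0.426 from limma). The difference was 0.29 without obese mouse 3 and 0.75 without obese mouse 1, where the adjusted limma p was 0.197. Without lean mouse 2 it was 0.68. Pelo, a gene on the same strand that lies within Itga1 and shares none of its exon bases, averaged 290.0 normalized counts. The annotation also has a readthrough gene on that strand, Gm49395, which shares 685 exon bases with Itga1 and is not analysed here, so reads on these bases are uncertain.

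Itga11 encodes the alpha 11 chain, a receptor for fibrillar collagen on fibroblasts. Itga11 covers chr9:62677826-62783982 (plus strand), with the shared stretch at chr9:62782631-62782639. Obese mice 1 to 3 had 68.3, 51.0 and 79.5 counts, and lean mice 1 to 3 had 73.9, 88.3 and 98.4. Here the 2 lowest values belonged to obese mice 1 and 2 and the 2 highest to lean mice 2 and 3, and the groups overlapped through obese mouse 3 and lean mouse 1. On the log2 scale the difference was -0.40 (SE 0.25, CI -0.95 to 0.16, adjusted p = 0.576 from limma). It remained negative with each mouse left out, from -0.54 without obese mouse 3 to -0.22. The smallest number of reads behind a value was 50, so that counting error alone was 12.8% in obese and 10.6% in lean atria, beside a spread among mice of 21.7% and 14.2% (coefficient of variation).

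Of the laminin receptors, Itga3 was lower and Itga6 and Itga7 differed little in the mean. Itga3 encodes the alpha 3 chain, known from epithelial basement membranes, and lies on the minus strand at chr11:95044474-95076801, with the stretch at chr11:95046579-95046587. Counts of 354, 425 and 344 were found on the HFD, against 401, 487 and 403 on control chow. Obese mouse 2 was above lean mice 1 and 3, and the other 2 obese mice were below all lean mice. This gave a log2FC of -0.20 (SE 0.15, CI -0.53 to 0.12, adjusted p = 0.639 from limma), and it lay between -0.30 and -0.11 with 1 mouse left out.

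Itga6 encodes the alpha 6 chain, which pairs with beta 1 or, in epithelia, with beta 4. Its position is chr2:71745616-71858416 on the plus strand, and that of the stretch chr2:71855857-71855865. The 3 obese mice gave 648, 906 and 1154 counts, and the 3 lean mice gave 796, 975 and 1005. The lowest and the highest of the 6 values both belonged to obese mice, mouse 1 and mouse 3. The log2FC of -0.067 (SE 0.19, CI -0.50 to 0.36, adjusted p = 0.931 from limma) became 0.15 without obese mouse 1 and -0.26 without obese mouse 3, so its sign rested on single mice.

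Itga7 encodes the alpha 7 chain, the main laminin receptor of striated muscle. On GRCm38 the gene spans chr10:128933818-128958282 on the plus strand, and its shared stretch is at chr10:128957624-128957632. Obese mice 1 to 3 had 2488, 2726 and 3309 counts, and lean mice 1 to 3 had 2582, 2761 and 2470.3. Obese mouse 3 was the highest, and the other 5 mice lay within the range from 2470.3 to 2761. The log2FC was 0.12 (SE 0.13, CI -0.16 to 0.40, adjusted p = 0.767 from limma) and 0.0016 without obese mouse 3. The library of obese mouse 3 also held the highest sum of atrial myocyte markers, and the part of these in the value was not tested.

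Among the chains that recognize RGD, the SD among obese mice exceeded the difference between the group means for each of the 3 genes. It did so for Itga1, Itga6 and Itga7 as well. Itga5 encodes the alpha 5 chain of the fibronectin receptor. Itga5 covers chr15:103344286-103366763 (minus strand), with the shared stretch at chr15:103345341-103345349. Counts of 1316, 1238 and 2424 were found on the HFD, against 1407, 1220.3 and 1469 on control chow. Obese mouse 3 stood alone, and the other 2 obese mice lay among the lean mice. The log2FC of 0.22 (SE 0.22, CI -0.28 to 0.71, adjusted p = 0.756 from limma) became -0.093 without obese mouse 3. The coefficient of variation was 40.0% in obese and 9.49% in lean atria, with a counting error of 2.62% and 2.65%.

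Itga8 encodes the alpha 8 chain, a receptor for nephronectin that is found in smooth muscle and fibroblasts. Its position is chr2:12106632-12301922 on the minus strand, and that of the stretch chr2:12109190-12109198. The 3 obese mice gave 168, 139 and 52.2 counts, and the 3 lean mice gave 109, 95.8 and 70.0. Obese mice 1 and 2 were above all lean mice, and obese mouse 3, the highest for Itga5, was here below them all. On the log2 scale the difference was 0.25 (SE 0.39, CI -0.62 to 1.11, adjusted p = 0.854 from limma). Without obese mouse 3 it was 0.76 (unadjusted p = 0.0112, adjusted p = 0.168 from limma), and without obese mouse 1 it was -0.077. At 46 reads in obese mouse 3, this was the member with the fewest reads behind a value. At its 5′ end it shares 372 exon bases with the antisense gene E030013I19Rik, which had a mean of 9.29 normalized counts. Whether counting was strand-specific is not given in the sources used here.

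Itgav encodes the alpha v chain, which pairs with several beta chains, binds vitronectin and takes part in the activation of latent TGF-beta. On GRCm38 the gene spans chr2:83724397-83806916 on the plus strand, and its shared stretch is at chr2:83803243-83803251. Obese mice 1 to 3 had 677, 909.7 and 767 counts, and lean mice 1 to 3 had 559, 721 and 826. The lowest value was lean and the highest obese, with the other 4 interleaved. This gave a log2FC of 0.17 (SE 0.17, CI -0.20 to 0.54, adjusted p = 0.745 from limma), and it lay between 0.013 and 0.29 with 1 mouse left out.

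Itga9 encodes the alpha 9 chain, whose ligands include tenascin-C and VCAM-1 and which is needed for the valves of lymphatic vessels. Itga9 covers chr9:118606690-118901003 (plus strand), with the shared stretch at chr9:118897237-118897245. Counts of 447, 483 and 617 were found on the HFD, against 389, 415 and 386 on control chow. All obese values exceeded all lean values, and obese mouse 3 was the highest. Group means came to 516 ± 89.4 and 396 ± 16.0 (SD, n = 3 each), and log2FC was 0.37 (SE 0.15, 95% CI 0.038 to 0.69, unadjusted p = 0.0322 and adjusted p = 0.353 from limma). An exact two-sided permutation test gave p = 0.1, which is the lowest possible with 3 mice in each group. Without obese mouse 3 the log2FC was 0.23 (unadjusted p = 0.122 from limma), and over all mice left out in turn it lay between 0.23 and 0.46. The unadjusted limma p was also above 0.05 without lean mouse 1 (0.0758), lean mouse 2 (0.0528) or lean mouse 3 (0.0741). It was 0.0178 without obese mouse 1 and 0.0408 without obese mouse 2. The lean mice spread by 4.03%, less than the counting error of 4.95%. An intron of Itga9 holds the processed pseudogene Gm10157 on the opposite strand, with a mean of 497 normalized counts, and the end of the gene overlaps the antisense gene Gm2415, with 57.3. Neither shares exon bases with Itga9.

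Itgb1 encodes the beta 1 chain with which all the alpha chains above can pair, and which most of them need to reach the cell surface. The gene is at chr8:128685654-128733200 (plus strand). The 3 obese mice gave 7622, 8068 and 7329 counts, and the 3 lean mice gave 5870.4, 6617 and 7383. The groups overlapped only through lean mouse 3, which lay just above obese mouse 3. Group means were 7673 ± 372 and 6624 ± 757 (SD, n = 3 each), and log2FC was 0.22 (SE 0.12, CI -0.048 to 0.48, adjusted p = 0.516 from limma). The difference stayed positive with each mouse left out, from 0.13 to 0.30, and was 0.25 without obese mouse 3.

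**Figure D2:**
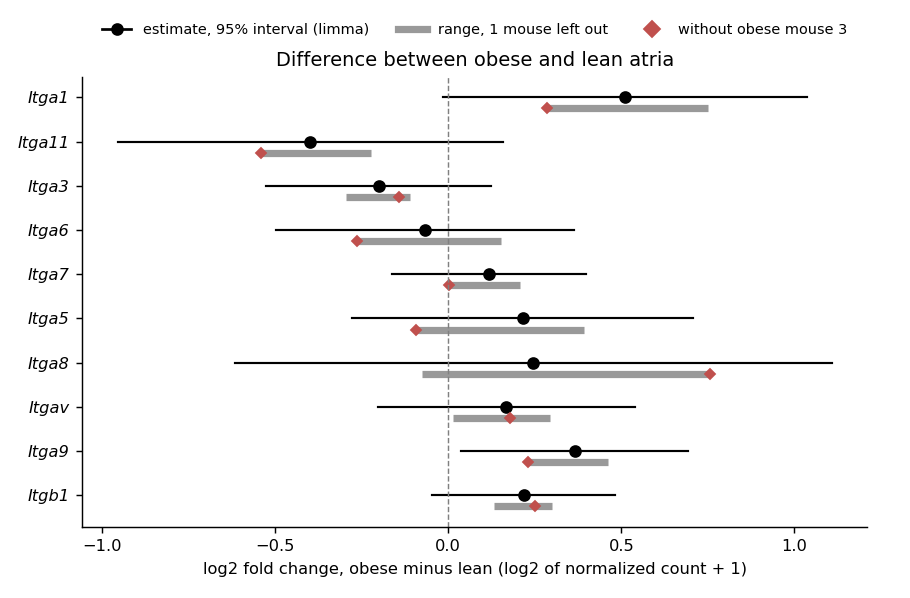
The log2FC of each gene, obese minus lean, on log2 of the normalized count plus 1 (horizontal axis), with its 95% confidence interval from limma (black), the range with 1 mouse left out in turn (gray) and the value without obese mouse 3 (red diamond). The interval leaves out 0 for Itga9 alone, and without obese mouse 3 the value moves from 0.51 to 0.29 for Itga1 and from 0.25 to 0.76 for Itga8.

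Obese mouse 3 most often lay at an end of its group, as its highest or lowest value. It was the highest obese mouse for Itga1, Itga5, Itga6, Itga7, Itga9 and Itga11 and the lowest for Itga3, Itga8 and Itgb1, so it lay at an end for 9 of the 10 genes, against 72.2% of all genes tested. The next was lean mouse 3, at an end for 8 genes against 71.7% of all genes. The coefficient of variation in obese atria was largest for Itga8 at 50.3%, followed by Itga5 at 40.0%, Itga1 at 31.4% and Itga6 at 28.0%. It was smallest for Itgb1 at 4.85%, so the common beta chain varied less among obese mice than any of its 9 partners. Among lean mice this did not hold: Itgb1 varied by 11.4%, more than Itga9 at 4.03%, Itga7 at 5.63%, Itga5 at 9.49% and Itga3 at 11.3%, and the largest was again Itga8 at 21.5%.

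Levels of different genes were compared as normalized counts per kilobase of exon (all annotated exons of a gene merged), averaged over the 6 mice. Itgb1 had the highest level, 1752, above every alpha chain in every mouse. Itga7 with 336 and Itga5 with 307 came next and overlapped each other across mice. Below them, and in every mouse below Itga5, came Itga6 with 101, Itga3 with 70.5, Itgav with 69.2 and Itga9 with 59.3, where each overlapped the next. The lowest were Itga1 with 16.0, Itga11 with 14.9 and Itga8 with 14.3, which overlapped one another and lay below Itga9 in every mouse. With the length of the longest transcript in place of all exons, Itgav came before Itga3 and Itga8 before Itga11, and the level of Itga7 was 677 and that of Itga6 was 212.

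**Figure D3:**
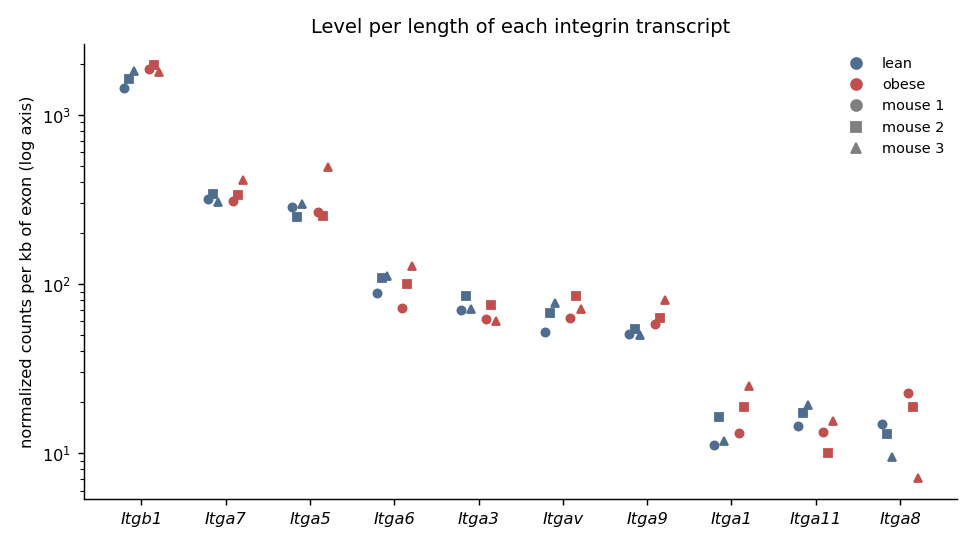
Normalized counts per kb of exon (log axis) of Itgb1 and the 9 alpha chains in order of their mean, with 1 point per mouse. Itgb1 lies above all alpha chains, Itga7 and Itga5 lie above 247 in all mice, and Itga1, Itga11 and Itga8 lie at or below 25.0.

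On this scale the laminin-binding chains made up 50.0 ± 3.54% of the summed level of the 9 alpha chains with the HFD and 53.4 ± 2.64% without it (SD, n = 3 each). The chains that recognize RGD made up 40.5 ± 3.63% and 37.9 ± 3.04%, and the collagen-binding chains 3.05 ± 0.0842% and 3.20 ± 0.352%. The shares overlapped between the diets for the laminin, RGD and collagen groups. The collagen share was similar although the means of its members differed in opposite directions: Itga1 made up 1.80 ± 0.264% with the HFD and 1.39 ± 0.278% without it and Itga11 1.25 ± 0.243% and 1.81 ± 0.211%. The share of Itga9 was 6.62%, 6.56% and 6.23% in obese mice 1, 2 and 3 and 5.58%, 5.68% and 5.27% in lean mice 1, 2 and 3, without overlap. That of Itga11 did not overlap either, although its counts did. The summed level by which the shares are divided was 1288 in obese mouse 3, against 878 to 958 in the other mice. The sum of the 9 alpha chains was 0.470, 0.484 and 0.717 times the level of Itgb1 in the obese mice and 0.630, 0.586 and 0.526 times in the lean mice, so obese mouse 3 lay above all lean mice and the other 2 below them. The shares depended on the length used. With the longest transcript as length, the laminin share was 61.6% with the HFD and 64.6% without it, and the RGD share 31.1% and 28.9%. The collagen share was then 2.79% and 2.69%, so the order of its means was reversed. These proportions describe RNA per length, not pairs of chains, and no test was made on them.

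Other integrin subunits share ligands or partners with the genes above. Of 10 such subunits in the table, 9 were tested, and 0 passed an adjusted p under 0.05 in limma. The count was 0 in edgeR and 1, Itgb3, in DESeq2, against 2.76% of all genes in DESeq2. At an unadjusted p under 0.05 there were 3, all higher in obese atria, against 6.66% of all genes, and the same 3 did not overlap between the groups, against 8.86% of all genes. Itgb3 encodes beta 3, a partner of alpha v that is also abundant in platelets as the partner of alpha IIb. Obese mice 1 to 3 had 115, 120.3 and 82.9 counts, and lean mice 1 to 3 had 51.5, 32.2 and 40.4, so the lowest obese value lay above the highest lean one. The log2FC was 1.34 (SE 0.27, CI 0.74 to 1.95, adjusted p = 0.0582 from limma, 0.0703 from edgeR and 0.00675 from DESeq2). Without obese mouse 3 it was 1.51 (adjusted p = 0.0262 from limma). No other fit with 1 mouse left out called Itgb3, and there the adjusted limma p reached 0.215. Itga2b, the alpha IIb chain, had 62.3, 103 and 55.7 counts on the HFD and 36.9, 42.4 and 55.7 on control chow (adjusted p = 0.426 from limma) and was named after its values were seen.

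Itga10 encodes alpha 10, another collagen receptor, known from cartilage. Counts of 89.4, 82.6 and 93.1 were found on the HFD, against 58.2, 22.6 and 43.7 on control chow. The obese mice were close together and the lean mice spread, with lean mouse 2 the lowest. On the log2 scale the difference was 1.17 (SE 0.34, CI 0.42 to 1.92, adjusted p = 0.165 from limma), and it was 0.79 to 1.46 with 1 mouse left out. Itgb5, the beta 5 partner of alpha v and likewise named after its values were seen, had 2529, 2521 and 2200.1 counts on the HFD and 2176, 1990.2 and 1916 on control chow, or log2FC 0.25 (adjusted p = 0.395 from limma). Itgav itself overlapped between the groups.

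**Figure D4:**
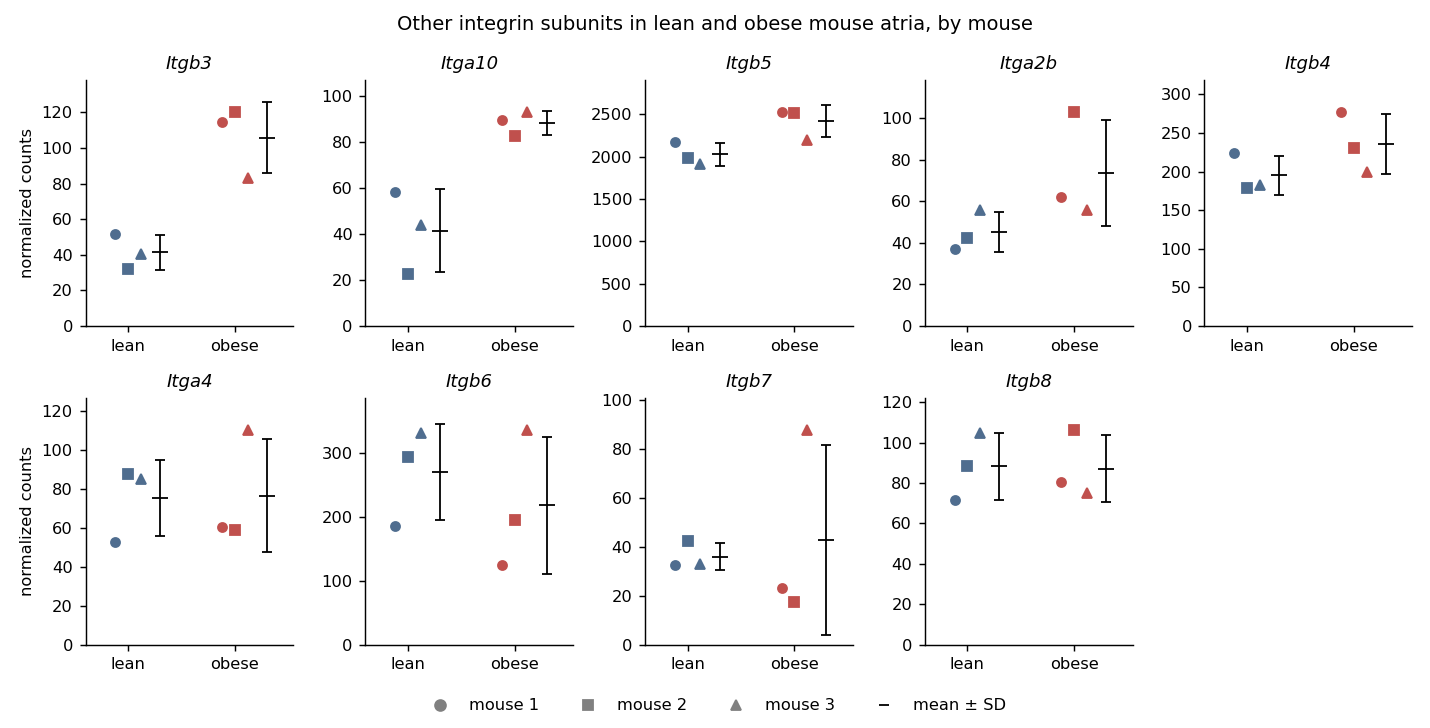
Normalized counts (vertical axes, from 0, a scale for each gene) of the 9 other integrin subunits tested, in 3 lean and 3 obese mice, with the mean ± SD beside each group. Itgb3, Itga10 and Itgb5 have all obese points above all lean points, and the other 6 overlap.

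The ligands of these receptors were read beside them. Of 45 genes for collagens, laminins and other matrix ligands in the table, 44 were tested, and 0 passed an adjusted p under 0.05 in limma. The count was 0 in edgeR and 2 in DESeq2, against 2.76% of all genes in DESeq2. At an unadjusted p under 0.05, 7 were higher and 1 was lower, against 6.66% and 5.55% of all genes. The median log2FC was 0.10 for the 12 collagen genes tested, 0.12 for 12 laminin and basement membrane genes and 0.12 for 20 RGD-type and other glycoprotein genes. Lama1 had no read in any of the 6 libraries.

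Col4a1, a chain of the basement membrane collagen that the alpha 1 receptor binds, had 6518, 9107 and 12449 counts on the HFD and 5342, 5674 and 5322 on control chow. The obese mice were all higher and, as for Itga1, lowest in mouse 1 and highest in mouse 3. That order was not particular to these genes, because Itga6, Itga7, Itga9 and Col15a1 had it too. Col4a1 had a log2FC of 0.73 (SE 0.20, CI 0.30 to 1.17, adjusted p = 0.13 from limma and 0.0018 from DESeq2), and 0.50 without obese mouse 3. Col5a2, of fibrillar collagen V, had log2FC 0.40 (adjusted p = 0.175 from limma), from 1273 ± 116 obese and 964 ± 68.2 lean counts (SD, n = 3 each). Col15a1, a basement membrane collagen named after its values were seen, had 1278, 1587 and 3253 counts on the HFD and 2786, 2805 and 2838 on control chow. Obese mice 1 and 2 were below all lean mice and obese mouse 3 above them, with log2FC -0.58 (adjusted p = 0.426 from limma), and -0.98 without obese mouse 3 (adjusted p = 0.00305), where it was the called ligand.

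Among the laminins, Lamb3 and Lamc1 lay on opposite sides. Lamb3, the beta chain of laminin-332, a ligand of alpha 3 and alpha 6, had 609.8, 549.7 and 426 counts on the HFD and 803, 793 and 776 on control chow. All obese mice were lower, with a log2FC of -0.60 (SE 0.15, CI -0.92 to -0.27, adjusted p = 0.101 from limma and 0.025 from DESeq2). Lamc1, the gamma chain of most laminins, averaged 4046 ± 349.9 counts in obese against 3204 ± 101 in lean atria (SD, n = 3 each), and log2FC was 0.33 (adjusted p = 0.228 from limma). Of the glycoproteins, Adam15, a membrane protein with an RGD site in human, had log2FC 0.44 (adjusted p = 0.168) and Fbn1, fibrillin-1, one of 0.29 (adjusted p = 0.373, both from limma).

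On the cytoplasmic side, 33 of 34 adaptors, kinases and activators were tested. In limma 1 was higher at an adjusted p under 0.05, against 0.484% of all genes, 6 were higher at an unadjusted p under 0.05, against 6.66%, and the median log2FC was 0.11. The called gene was Actn1, alpha-actinin 1, a crosslinker of actin at adhesions, with 957, 919 and 947 counts on the HFD and 659, 521 and 494 on control chow. The obese mice were almost alike and all above the lean mice (log2FC 0.76, SE 0.13, adjusted p = 0.0358 from limma). It kept this call without obese mouse 3 and without lean mouse 1, and lost it without each of the other 4 mice. Ptk2b, a kinase related to focal adhesion kinase, had log2FC 0.48 (adjusted p = 0.145 from limma). Tln1, talin 1, which binds the beta tails directly, had a log2FC of 0.11, and Ilk, integrin-linked kinase, one of -0.03. Neither was called, and both were named after their values were seen. Without obese mouse 3 a further adaptor, Itgb1bp2 (melusin, a muscle protein that binds the beta 1 tail), was called lower, with log2FC -0.58 (adjusted p = 0.0212 from limma). No other setting called it. Over all 6 mice, 0 adaptors were lower at an unadjusted limma p under 0.05, and the lowest log2FC among those tested was -0.32.

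Of 14 membrane partners and regulators of integrin uptake, 14 were tested and 0 passed an adjusted p under 0.05 in limma. The count was 0 in edgeR and 1 in DESeq2, against 2.76% of all genes in DESeq2. At an unadjusted limma p under 0.05, 2 were higher, against 6.66% of all genes, and the median log2FC was 0.017. Plaur, the urokinase receptor, which associates with integrins and binds vitronectin, had 76.3, 81.6 and 96.5 counts on the HFD and 43.7, 19.2 and 35.0 on control chow. All obese mice were above all lean mice, with a log2FC of 1.42 (SE 0.33, CI 0.68 to 2.16, adjusted p = 0.0874 from limma and 0.0227 from DESeq2). Cd9, a tetraspanin that associates with beta 1 integrins, had log2FC 0.39 (adjusted p = 0.167 from limma). Over the other subunits, ligands, adaptors and partners together, 18 of 100 genes were higher and 1 was lower at an unadjusted p under 0.05, against 6.66% and 5.55% of all genes.

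Markers of several cell types also differed in range between the groups. The summed level of 8 endothelial markers was 17842 to 19405 normalized counts in obese and 15039 to 15908 in lean atria, that of 8 smooth muscle and pericyte markers 12570.2 to 13124 and 11005 to 12171, and that of 6 macrophage markers 8049 to 9482 and 6281 to 7937, each without overlap. Of these markers, 6 of 8, 5 of 8 and 5 of 6 had a positive log2FC. In contrast, 0 of 7 atrial myocyte, 0 of 4 ventricular myocyte and 0 of 4 Schwann cell markers had a positive log2FC, against 50.8% of all genes. Their medians were -0.40, -0.40 and -0.59. At an unadjusted limma p under 0.05, 3, 1 and 2 of them were lower, against 5.55% of all genes. The sums of these lists overlapped between the groups. Atrial myocyte markers summed to 685706 to 1273274 in obese and 1065436 to 1126027 in lean atria. Ventricular markers summed to 6882 to 9866 and 7919 to 17399, and Schwann cell markers to 435 to 663 and 623 to 787. The 6 fibroblast markers overlapped, with 29977 to 33561 and 31069.6 to 36917. White adipocyte markers summed to 2666 to 5029.8 and 926 to 2425, and brown adipocyte markers to 616 to 1283 and 187 to 330.3, both without overlap. Of the white adipocyte markers, 5 of 6 had a positive log2FC, and the lowest log2FC was -1.41. Of the brown adipocyte markers, 3 were tested and 3 had a positive log2FC, from 1.21 to 4.43. At an adjusted limma p under 0.05, 2 brown adipocyte markers, 1 white adipocyte marker and 1 endothelial marker were higher, against 0.484% of all genes. No marker of the other lists was called, and none was called lower. The 5 lymphocyte markers were near the limit of detection, with a sum of at most 40.9 normalized counts in any library. Their part in the values of Itga1, Itga9, Itgb1, Itgb3 and Itga10, which were higher in the obese means, and of Itga11, which was lower, was not tested.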

How the data were processed

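Atrial RNA of 3 obese and 3 lean mice was sequenced by the authors as single-end reads from directional libraries, aligned to GRCm38 (Ensembl 79) with STAR, and assigned to genes with Salmon. What they deposited per gene and mouse is a signal, namely the authors' read count divided by 1 size factor per library, called normalized counts here. All values were whole multiples of the value of 1 read (tolerance 0.01), so the reads behind each value were recovered, between 15874251 and 28971508 per library. Further deposited columns hold the authors' own DESeq2 comparison (log2 fold changes, their errors, the Wald statistic and a ranking score, p-values) and were not used.

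Obese and lean mice were compared by limma 3.58.1 under R 4.3.3 (variance trend, no covariate) on log2(normalized count + 1), a scale that understates the change of low genes, over genes averaging at least 10, with Benjamini-Hochberg adjustment over all of them. Alternatives were other normalizations, filters and pseudocounts, mitochondrial genes left out, a replicate block, each mouse left out, and edgeR 4.0.16 and DESeq2 1.42.0 on the recovered reads. Fits were tested on simulated data. Exon lengths, positions and coding sequences came from GENCODE M21 on GRCm38, where some gene ends may differ from Ensembl 79. From each gene list, the genes past the threshold were named, or else those with the smallest p up to 2. The genes, lists and rules were chosen with earlier results of these data known. With 3 mice a group, differences within the intervals given were not resolved, and counting errors cover sampling of reads only. No 2 libraries agreed within sampling noise.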

Additional observations from a re-analysis of the deposited data

How the results depend on the processing

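None of the 10 genes passed an adjusted p under 0.05 in any of the 16 alternatives. Leaving out 1 mouse at a time changed the direction of 3 members on the log2 scale: Itga5 ranged from -0.093 (without obese mouse 3) to 0.39, Itga6 from -0.26 to 0.15 (without obese mouse 1) and Itga8 from -0.077 (without obese mouse 1) to 0.76. The other 7 kept their direction. Over all genes, limma called 114, 0 without a variance trend, and 14 (without lean mouse 2) to 342 (without obese mouse 3) with 1 mouse left out. DESeq2 called 443. The adaptors called were 0 without a variance trend and 0 to 2 with 1 mouse left out, against 1. DESeq2 called 2 ligands, 1 membrane partner and 1 other integrin subunit, against 0 each. A minimum of 10 in every sample called 1 other subunit, Itgb3, and with 1 mouse left out there were 0 to 1 other subunits and 0 to 1 ligands. With the replicate number as a block, 157 genes were called and 0 of the 10. The numbers name different mice, and same-numbered mice did not deviate together (correlations 0.12, -0.027 and -0.0039), so the samples were not treated as pairs. Depth limited Itga8 and Itga11 most, with 46 and 50 reads in their lowest libraries. The sum of the alpha chains per length over Itgb1 differed between the group means by -0.0233, by -0.0435 with the longest transcript as length, and by -0.103 (without obese mouse 3) to 0.0202 with 1 mouse left out. Without obese mouse 3, the only obese mouse not below all lean mice, the groups did not overlap, and in the other settings they did.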
